A study of Mus musculus with 12 samples.

Results

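The pericyte and smooth muscle genes are 8 genes of mural cells, the contractile and supporting cells that wrap blood vessels. They were taken by name, as the probe sets that the platform annotation assigns to 1 listed gene only, and the brightest probe set by mean over 12 arrays stood for each gene. The 8 genes have 17 probe sets among 18194 genes with such a probe set, and 7 of the 8 passed the filter on low values, with Cnn1 below it. Each array measured RNA of a whole cornea sample of C57BL/6J background on an Affymetrix chip. The intact corneas were null for Dscr-1 and ApoE together (double KO), null for Dscr-1 (Dscr1KO), null for ApoE (ApoeKO) or wild type (WT), with 2 arrays per genotype that the labels call biological replicates. The sutured corneas were 1 array each, taken after suturing from Dscr1KO and WT at day 5 and from Dscr-1 Tg (Dscr1 Tg) and WT at day 7. The gene Rcan1, formerly Dscr1, encodes an inhibitor of the phosphatase calcineurin, and Apoe encodes a cholesterol-carrying apolipoprotein. The labels give neither the promoter of the transgene nor the sex, age and number of animals behind each array.

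Pericytes line capillaries and smooth muscle cells surround arterioles and venules, and both are drawn to new vessels by platelet-derived growth factor from endothelial cells. The healthy cornea has no blood vessels at its centre, and sutures are a standard way to make vessels grow in from its rim. Smooth muscle actin is also made by activated stromal fibroblasts, so it is not particular to vessels.

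Several facts of the whole series touch the results. Rcan1 had 331.7 to 477.5 intensity units on the 4 intact arrays without Dscr1 (double KO and Dscr1KO) and 581.3 to 668.2 on the 4 intact arrays with it (ApoeKO and WT), and no source used here says whether its probes fall inside the deletion. On the same probe set it had 548.3 units in the sutured Dscr1 Tg cornea and 579.7 in the sutured WT cornea at day 7, so the transgene was not seen as a higher level there, while the other, dimmer probe set read 66.7 and 53.4 units in that order. Apoe read 849.3 units in the library labelled ApoeKO replicate 1, against 7.5 in the library labelled ApoeKO replicate 2, 32.5 and 22.7 in double KO, and 1030.5 and 776.5 in WT. The library labelled Dscr1KO replicate 2 carries a source label that names ApoE-/-, and its Apoe level was 316.8 units against 1272.0 in replicate 1. Xist, which marks female tissue, read 4104.0 to 5385.2 units in both ApoeKO, both Dscr1KO and the first double KO libraries, and at most 19.6 in the other 7, so sex differs between the genotypes. All 4 sutured arrays lacked Xist, so in Dscr1KO sex and suturing cannot be told apart.

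Regulatory sequence was available for 5 of the 8 genes, Acta2, Cnn1, Des, Rgs5 and Cspg4, in RefSeq's stretches before gene starts on mouse GRCm38.p6; Tagln, Myh11 and Pdgfrb had no entry. Smooth muscle genes are classically driven by serum response factor, which binds the CArG box. The full CArG box occurred in none of the 5 stretches of 250 bases and in 1.47% of all 32851 stretches of that length. A CArG-like element with 1 G or C in its centre, a form added after the sequences were seen, occurred 2 times in Acta2 and in none of the other 4 genes, and 7.24% of all stretches hold it. Both elements of Acta2 are shown because this gene encodes smooth muscle actin, the contractile protein of the list. They lie on the minus strand of chromosome 19, at chr19:34255438-34255467 and chr19:34255388-34255417 with 10 bases on each side, and their first bases are 84 and 34 bases before the start that the stretch table uses. That start lies inside the outer bounds of Acta2 in RefSeq's gene table, so by those bounds both elements are within the gene. Capitals mark the element.
Acta2 distal element: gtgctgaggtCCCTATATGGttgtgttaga
Acta2 proximal element: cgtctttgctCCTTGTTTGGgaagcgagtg

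The stretch before Rgs5, at chr1:169655251-169655500 on the plus strand, is shown because Rgs5 had the widest range of levels among the 8 genes. Capitals mark CAGA, the short element bound by Smad factors, on the strand shown.
Rgs5: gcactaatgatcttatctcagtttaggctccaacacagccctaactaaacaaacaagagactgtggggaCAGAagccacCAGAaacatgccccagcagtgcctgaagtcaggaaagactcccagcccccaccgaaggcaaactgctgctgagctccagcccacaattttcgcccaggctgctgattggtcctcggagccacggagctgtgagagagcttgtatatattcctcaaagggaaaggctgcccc
CAGA was counted on both strands, and it occurred 2 times before Rgs5, 7 times before Acta2, 5 before Cnn1, 2 before Des and 4 before Cspg4, while 93.3% of all stretches hold it. The E-box CANNTG occurred 3 times before Acta2, 1 time before Cnn1, 2 times before Des and in neither Rgs5 nor Cspg4, and 66.2% of all stretches hold it. These matches describe the letters in the window only.

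In intact corneas without Dscr1, the pericyte genes Rgs5 and Pdgfrb and the smooth muscle gene Tagln rose, and none of the 7 genes tested fell. Rgs5 rose 72.3-fold, Pdgfrb 2.97-fold and Tagln 2.05-fold on the shifted intensity scale, averaged over both Apoe genotypes with 4 arrays against 4. The question of this comparison is what the loss of Dscr1 changes in the unwounded cornea. Changes were fitted with limma on log2(intensity + 3.6), and calls were made at an adjusted p under 0.05 with Benjamini-Hochberg adjustment over 12706 genes. Of the 7 members tested, 3 rose, while 16.3% of all genes tested rose and 15.4% fell. The median change of the 7 was 0.757 on the log2 scale, and that of all genes tested was -0.018. In whole-tissue RNA, more cells of a type and more RNA per cell cannot be told apart.

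**Figure D1:**
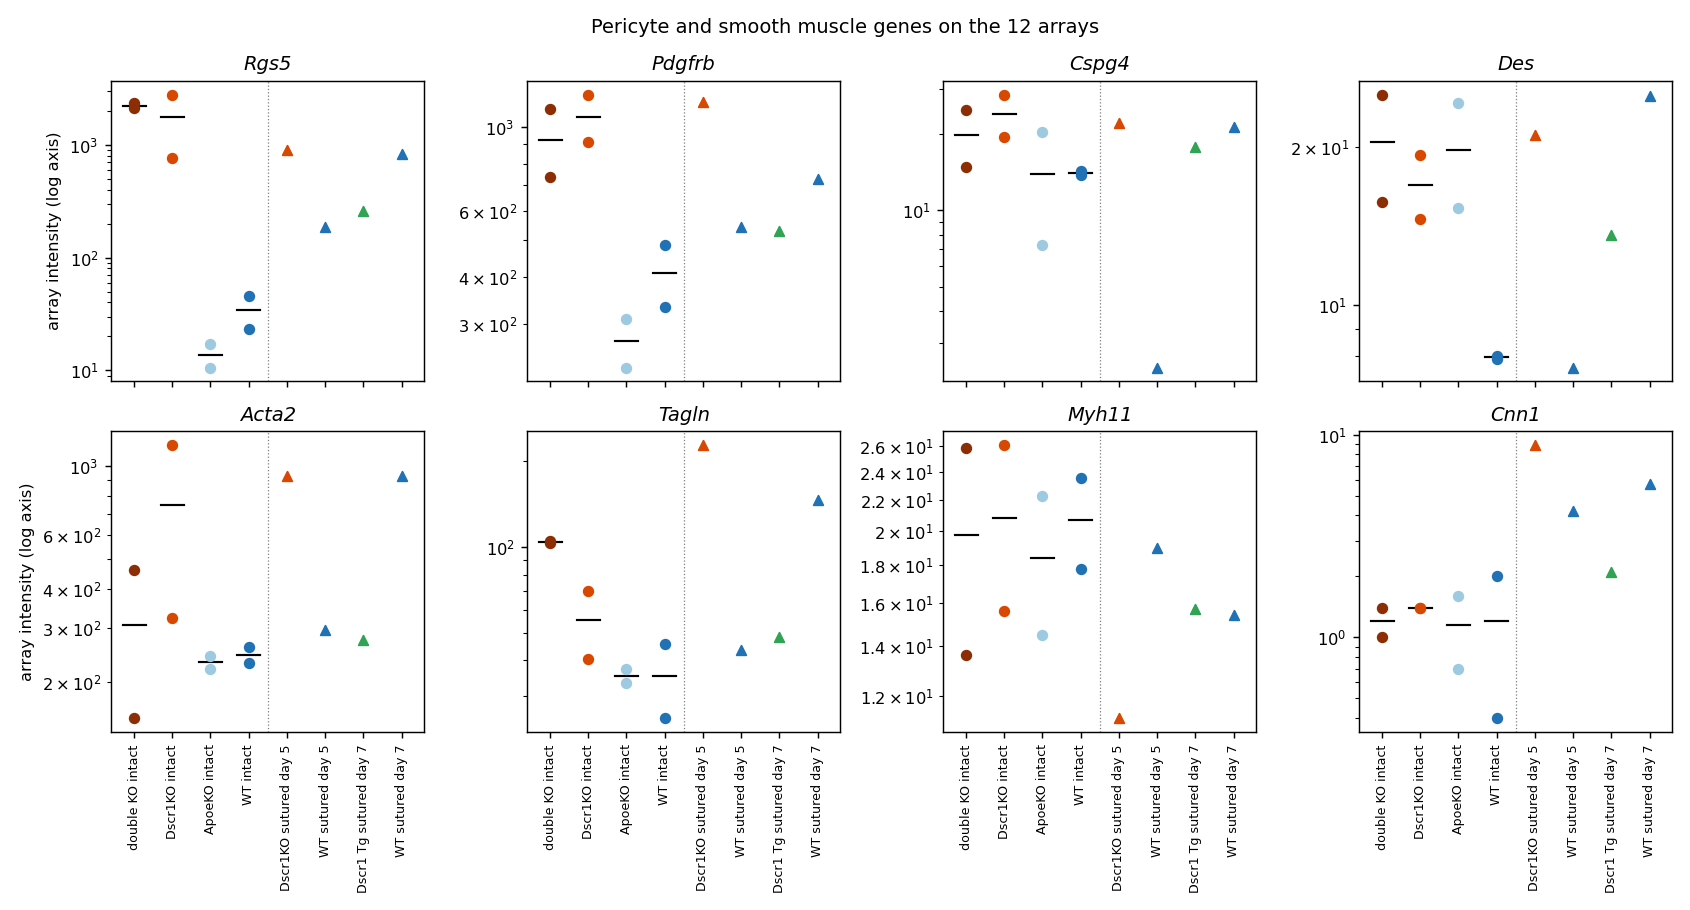
Array intensity (log axis) of the 8 genes on 12 arrays, by genotype. Circles are intact corneas with a bar at the group mean (n = 2), and triangles are sutured corneas with 1 array each; the Rgs5 values without Dscr1 start at 758.7 units and those of intact corneas with Dscr1 end at 45.3.

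Rgs5 encodes a regulator of G protein signalling that marks pericytes. It read 2330.9 and 2099.7 intensity units in double KO corneas and 758.7 and 2778.3 in Dscr1KO corneas, against 10.6 and 17.0 in ApoeKO and 45.3 and 23.1 in WT. All 4 arrays without Dscr1 lay above all 4 with it, with a wide gap. The averaged log2 change was 6.18 ± 0.40 (SE, adjusted p = 7.56e-05, limma). The same split was seen on the other 3 Rgs5 probe sets, the brightest of them with 23.9 to 83.3 units without Dscr1 and 4.6 to 6.9 with it. The dimmest of these 3 by mean was below the filter, and the suffixes of the others mark probes that can match several transcripts.

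Rgs5 was also apart within each side of the Xist split. Among the arrays with Xist, double KO replicate 1 and both Dscr1KO libraries read at least 758.7 units and both ApoeKO libraries at most 17.0. Among the intact arrays without Xist, double KO replicate 2 read 2099.7 units, against 45.3 and 23.1 in WT. Only double KO had intact arrays both with and without Xist, so an Xist term in the fit rested on the double KO arrays alone. With that term, the averaged log2 change was 6.14 (adjusted p = 0.000971, limma). Without both doubtful libraries (ApoeKO replicate 1 and Dscr1KO replicate 2) it was 5.57 (adjusted p = 0.000289).

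Pdgfrb encodes the receptor through which platelet-derived growth factor holds pericytes on the vessel wall. It read 739.1 and 1116.1 units in double KO corneas and 913.3 and 1221.0 in Dscr1KO corneas, against 309.4 and 229.4 in ApoeKO and 485.3 and 332.6 in WT. The groups with and without Dscr1 did not overlap. The averaged log2 change was 1.57 ± 0.20 (SE, adjusted p = 0.00128), and its second probe set rose as well (adjusted p = 0.00136). It was 1.72 with Xist as a term (adjusted p = 0.00313) and 1.57 without both doubtful libraries (adjusted p = 0.00854).

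Cspg4 encodes NG2, a proteoglycan on the surface of pericytes. It read 14.8 and 24.8 units in double KO corneas and 19.5 and 28.5 in Dscr1KO corneas, against 20.4 and 7.3 in ApoeKO and 14.2 and 13.8 in WT. The arrays with and without Dscr1 overlapped through the library labelled ApoeKO replicate 1. The averaged log2 change of 0.56 ± 0.32 (SE, adjusted p = 0.211) did not pass the test, and that of the second probe set was 0.94 ± 0.36 (SE, adjusted p = 0.0879).

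Des encodes desmin, the intermediate filament of muscle cells that pericytes also carry. It read 15.7 and 25.2 units in double KO corneas and 19.3 and 14.6 in Dscr1KO corneas, against 24.3 and 15.3 in ApoeKO and 7.9 and 8.0 in WT. Both WT arrays were lower than the other 6 intact arrays. The averaged log2 change of 0.43 ± 0.26 (SE, adjusted p = 0.239) did not pass the test. Its dimmer probe set stayed between 0.7 and 6.6 units on the 12 arrays.

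Acta2 encodes smooth muscle actin. It read 153.4 and 461.0 units in double KO corneas and 323.5 and 1171.3 in Dscr1KO corneas, against 244.2 and 220.8 in ApoeKO and 259.8 and 231.3 in WT. The 2 arrays of each genotype without Dscr1 were far apart, the lowest below every array with Dscr1, while the 4 arrays with Dscr1 stayed within 220.8 to 259.8. The averaged log2 change was 0.76 ± 0.45 (SE, adjusted p = 0.231). It passed the test in 1 of 18 alternatives, without Dscr1KO replicate 1 (1.22, adjusted p = 0.0272), and was 0.33 (adjusted p = 0.635) without both doubtful libraries. The suffix of the Acta2 probe set marks probes that can match several transcripts, and the other 2 Acta2 probe sets stayed between 0.4 and 9.0 units.

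Tagln encodes transgelin, an actin-binding protein of early smooth muscle. It read 105.4 and 103.0 units in double KO corneas and 40.6 and 70.1 in Dscr1KO corneas, against 33.3 and 37.3 in ApoeKO and 45.5 and 25.1 in WT. Both double KO arrays were highest, and the groups with and without Dscr1 overlapped through Dscr1KO replicate 1 and WT replicate 1. The averaged log2 change was 1.04 ± 0.24 (SE, adjusted p = 0.0147). This call was lost without WT replicate 2 (adjusted p = 0.0609), without the library labelled ApoeKO replicate 1 (adjusted p = 0.0575) and without both doubtful libraries (0.82, adjusted p = 0.0945).

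Myh11, the myosin heavy chain of mature smooth muscle, read 13.6 and 25.9 units in double KO corneas and 15.6 and 26.1 in Dscr1KO corneas, against 22.3 and 14.5 in ApoeKO and 23.6 and 17.8 in WT. The groups overlapped throughout, and the averaged log2 change was 0.02 ± 0.29 (SE, adjusted p = 0.964), with a sign that turned under quantile normalization. Cnn1 encodes calponin, an actin-binding protein of contracting smooth muscle. It read 1.0 and 1.4 units in double KO corneas and 1.4 and 1.4 in Dscr1KO corneas, against 0.7 and 1.6 in ApoeKO and 0.4 and 2.0 in WT, and was too low to be tested.

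**Figure D2:**
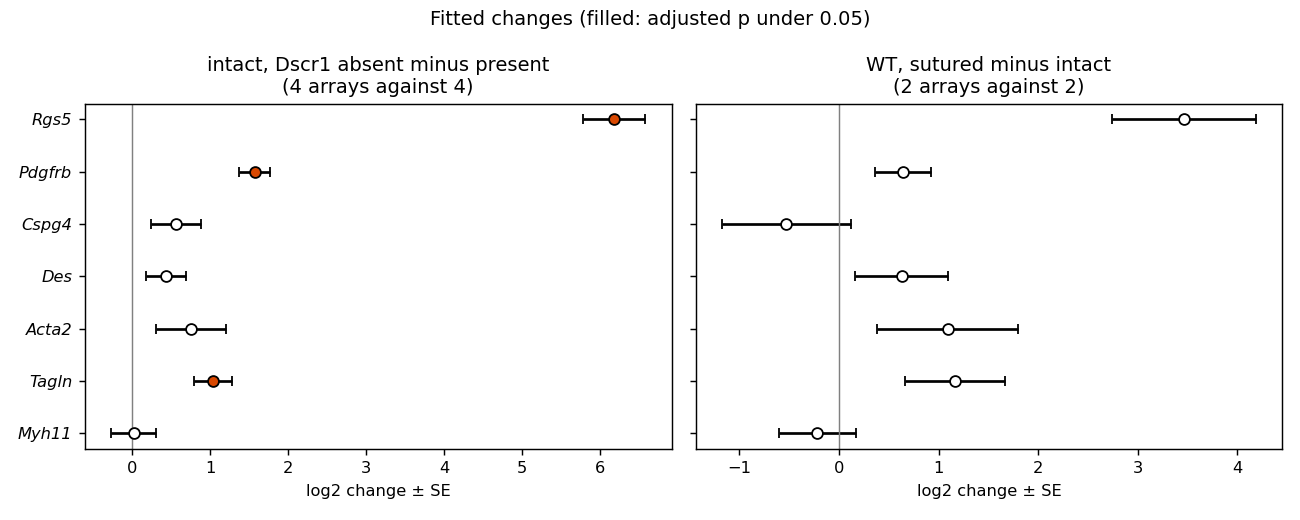
Fitted log2 change ± SE of the 7 genes tested, for intact corneas without against with Dscr1 (4 arrays against 4) and for WT corneas sutured against intact (2 against 2). Filled points have an adjusted p under 0.05, which Rgs5, Pdgfrb and Tagln have on the left and no gene has on the right.

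Pairwise between intact genotypes, Dscr1KO against WT gave 2 rises and 0 falls among the 7 genes, where 7.86% of all genes tested rose. Both Dscr1KO arrays had Xist and both WT arrays lacked it, so sex and genotype cannot be told apart in this pair. Rgs5 rose by 5.33 ± 0.56 (SE, adjusted p = 0.0018) and Pdgfrb by 1.39 ± 0.29 (SE, adjusted p = 0.0215) on the log2 scale. The Pdgfrb call was lost without WT replicate 1 (adjusted p = 0.0617), WT replicate 2 (adjusted p = 0.178) or Dscr1KO replicate 2 (adjusted p = 0.0779). Acta2 had 1.32 ± 0.63 (SE, adjusted p = 0.209), 2.24 without Dscr1KO replicate 1 (adjusted p = 0.0214) and 0.40 without both doubtful libraries (adjusted p = 0.813). Tagln had 0.60 ± 0.34 (SE, adjusted p = 0.281).

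Double KO against WT gave 3 rises and 0 falls, where 11.4% of all genes tested rose. Rgs5 rose by 5.94 ± 0.56 (SE, adjusted p = 0.000757), Tagln by 1.52 ± 0.34 (SE, adjusted p = 0.0187) and Pdgfrb by 1.17 ± 0.29 (SE, adjusted p = 0.0251). Tagln and Pdgfrb both lost their calls without WT replicate 2 (adjusted p = 0.147 and 0.188) and without double KO replicate 2 (adjusted p = 0.06 and 0.105). Tagln also lost its call without double KO replicate 1 (adjusted p = 0.0774), and Pdgfrb without WT replicate 1 (adjusted p = 0.0542).

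Double KO against ApoeKO gave 3 rises and 0 falls, where 11% of all genes tested rose. Rgs5 rose by 7.02 ± 0.56 (SE, adjusted p = 0.000509), Pdgfrb by 1.76 ± 0.29 (SE, adjusted p = 0.00638) and Tagln by 1.47 ± 0.34 (SE, adjusted p = 0.0223). Tagln lost its call without either ApoeKO or either double KO replicate, with adjusted p between 0.0661 and 0.125, and without both doubtful libraries (adjusted p = 0.0669), and Pdgfrb without ApoeKO replicate 2 (adjusted p = 0.0646). Of the 3 genes, Rgs5 alone, by its brightest probe set, passed the test in each of these pairwise comparisons under every alternative run. A dimmer Rgs5 probe set did not pass in Dscr1KO against WT (1.25 ± 0.39, SE, adjusted p = 0.0848).

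In ApoeKO corneas no member differed from WT past the test. Both ApoeKO arrays had Xist and both WT arrays lacked it, so sex and genotype cannot be told apart in this pair. ApoeKO against WT gave 0 calls among the 7 genes and 1 unadjusted p under 0.05, where 0.0236% of all genes tested were called by limma in either direction. That 1 gene was Des, at 0.99 ± 0.36 on the log2 scale (SE, adjusted p = 1.0). Rgs5 had -1.08 ± 0.56 and Pdgfrb -0.59 ± 0.29 (SE, adjusted p = 1.0 for both), and for both genes the 2 ApoeKO arrays lay below the 2 WT arrays. The library labelled ApoeKO replicate 1 has an Apoe level like WT, so this comparison holds 1 library that goes against its label. Without both doubtful libraries no member was called either, and Rgs5 had -0.81 and Pdgfrb -0.80.

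Double KO against Dscr1KO likewise gave 0 calls by limma among the 7 genes and 1 unadjusted p under 0.05, where 0.0236% of all genes tested were called. That gene was Tagln, whose 2 double KO arrays were above both Dscr1KO arrays, at 0.92 ± 0.34 (SE, adjusted p = 0.45). Acta2 had -1.20 ± 0.63 (SE, adjusted p = 0.539), and Rgs5 0.61 ± 0.56 (SE, adjusted p = 0.722), which turned to -0.33 without Dscr1KO replicate 1. The Rgs5 probe sets disagreed in size. A dimmer probe set read 73.6 and 67.7 units in double KO, against 7.7 and 15.4 in Dscr1KO. Its change was 2.34 ± 0.39 (SE, unadjusted p = 0.000241, adjusted p = 0.179), and that of another dimmer one was 0.06 ± 0.49 (SE, adjusted p = 0.971). Dscr1KO replicate 2, whose source label names ApoE-/-, enters this comparison, and without both doubtful libraries Acta2 had -0.28 and Rgs5 1.54, with neither called. The test of whether Dscr1 loss acted differently with and without Apoe, as an interaction term in limma, gave 0 calls and 0 unadjusted p under 0.05 among the 7 genes, where 0.00787% of all genes tested were called. Its estimates were 1.68 ± 0.79 for Rgs5, -1.12 ± 0.89 for Acta2 and 0.87 ± 0.48 for Tagln (SE, adjusted p = 0.675, 0.776 and 0.709). The same 2 dimmer Rgs5 probe sets, in the same order, had 2.73 ± 0.55 (SE, unadjusted p = 0.000891, adjusted p = 0.377) and 0.03 ± 0.70 (SE, adjusted p = 0.993). These intact comparisons share arrays and are not independent of each other.

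Suturing of WT corneas put Rgs5 at a higher level without passing the test, and the 2 sutured arrays were from different days. Pooled over day 5 and day 7, 0 of the 7 members were called by limma and 2 had an unadjusted p under 0.05, where 1.57% of all genes tested were called. The median change of the 7 was 0.642, and that of all genes tested -0.059. Rgs5 read 188.4 units at day 5 and 824.8 at day 7, against 45.3 and 23.1 in intact WT, a log2 change of 3.46 ± 0.72 (SE, adjusted p = 0.0545). Both sutured arrays lay above both intact ones. Rgs5 passed the test in 6 of 20 alternatives, among them the fit on the compared groups alone (adjusted p = 0.0477) and the fit without WT at day 5 (4.52, adjusted p = 0.0386). Over the 20 alternatives its log2 change lay between 1.81 and 4.52, with an adjusted p of at most 0.57.

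Tagln read 43.6 units at day 5 and 146.5 at day 7, against 45.5 and 25.1 in intact WT, so only the day 7 array stood above them. Its log2 change was 1.16 ± 0.50 (SE, adjusted p = 0.328). Acta2 read 296.0 units at day 5 and 932.4 at day 7, against 259.8 and 231.3 in intact WT, with 1.09 ± 0.71 (SE, adjusted p = 0.517). Day 7 was the higher array for both contractile genes. Pdgfrb read 543.4 units at day 5 and 727.7 at day 7, against 485.3 and 332.6 in intact WT, with 0.64 ± 0.28 (SE, adjusted p = 0.343).

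Des read 7.6 units at day 5 and 25.0 at day 7, against 7.9 and 8.0 in intact WT, with 0.63 ± 0.47 (SE, adjusted p = 0.579). Myh11 read 19.0 units at day 5 and 15.4 at day 7, against 23.6 and 17.8 in intact WT, with -0.22 ± 0.39 (SE, adjusted p = 0.841). Neither gene passed the test. The 2 Cspg4 probe sets disagreed in sign: the brighter read 2.4 units at day 5 and 21.2 at day 7, against 14.2 and 13.8 in intact WT, with -0.53 ± 0.64 (SE, adjusted p = 0.757). The dimmer read 12.6 units at day 5 and 29.2 at day 7, against 8.4 and 3.2 in intact WT, with 1.35 ± 0.52 (SE, adjusted p = 0.28). Cnn1, below the filter and untested, read 8.9 units in sutured Dscr1KO and 4.2 in sutured WT at day 5, and 2.1 in sutured Dscr1 Tg and 5.7 in sutured WT at day 7, and at most 2.0 on the 8 intact arrays. For this calponin gene the lowest sutured value of 2.1 units lay next to the highest intact value of 2.0, both below the pseudocount of 3.6.

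In Dscr1KO corneas, suturing (1 array) against intact (2 arrays) gave 0 calls by limma among the 7 genes and 1 unadjusted p under 0.05, where 0.37% of all genes tested were called. The lone sutured array was assumed to vary like the other groups, and it lacked Xist (6.0 units) while both intact arrays had it, so sex and suturing cannot be told apart here or in the interaction. Tagln read 228.0 units in the sutured Dscr1KO cornea, its highest value on the 12 arrays, against 40.6 and 70.1 in intact Dscr1KO, a log2 change of 2.02 ± 0.62 (SE, adjusted p = 0.21). Rgs5 read 907.4 units in the sutured Dscr1KO cornea, between the 758.7 and 2778.3 of intact Dscr1KO, with -0.68 ± 0.88 (SE, adjusted p = 0.734) and 0.26 without Dscr1KO replicate 2. The difference of the suturing effect between Dscr1KO and WT was 0 calls by limma with 1 unadjusted p under 0.05, where 1.03% of all genes tested were called. That gene was Rgs5, at -4.14 ± 1.14 (SE, adjusted p = 0.133). It had -5.07 without Dscr1KO replicate 1 and -3.21 without both doubtful libraries. Dimmer Rgs5 probe sets had -1.58 ± 1.05 and 0.05 ± 0.79 (SE, adjusted p = 0.544 and 0.986). The WT side pools day 5 and day 7, while the sutured Dscr1KO array is of day 5. Tagln had 0.86 ± 0.80 (SE, adjusted p = 0.622).

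Between single sutured arrays there is no replicate, so only sizes are given, and the fold used to mark a difference is 2-fold. In the Dscr1KO cornea at day 5, 6 of the 7 members were more than 2-fold above WT at day 5, where 6.09% of all genes tested were past 2-fold in either direction. Iris pigment markers, from a tissue that holds smooth muscle, summed to 2074.3 units on this Dscr1KO array, the highest of the 12, and to 762.1 in WT, and their part in the differences was not tested. Tagln read 228.0 units in Dscr1KO and 43.6 in WT, a log2 difference of 2.29. Rgs5 read 907.4 units in Dscr1KO and 188.4 in WT, a difference of 2.25. Cspg4 had 2.09, Acta2 1.64 (929.7 units in Dscr1KO and 296.0 in WT), Des 1.14 and Pdgfrb 1.10 (1165.0 units in Dscr1KO and 543.4 in WT). The WT value of Cspg4 was 2.4 units, below the pseudocount, so its difference lay between 1.69 and 2.69 with other pseudocounts, and that of Des was 0.97, under 2-fold, with the highest one. The other tested Cspg4 probe set differed less, with 33.3 units in Dscr1KO and 12.6 in WT. Myh11, at 11.2 units in Dscr1KO and 19.0 in WT, was the one member that was lower, by a difference of -0.61.

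In the Dscr1 Tg cornea at day 7, 3 of the 7 members were more than 2-fold below WT at day 7, where 4.26% of all genes tested were past 2-fold in either direction. Acta2 read 275.2 units in Dscr1 Tg and 932.4 in WT, a log2 difference of -1.75. Rgs5 read 260.5 units in Dscr1 Tg and 824.8 in WT (-1.65), and Tagln 48.2 in Dscr1 Tg and 146.5 in WT (-1.53). The other members differed by less than 2-fold, Des by -0.73, Pdgfrb by -0.46, Cspg4 by -0.21 and Myh11 by 0.02.

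Between the 2 WT sutured corneas, 5 of the 7 members were more than 2-fold higher at day 7 than at day 5, where 5.3% of all genes tested were past 2-fold in either direction. The log2 differences were 2.11 for Rgs5, 2.05 for Cspg4, 1.67 for Tagln, 1.64 for Acta2, 1.35 for Des, 0.42 for Pdgfrb and -0.25 for Myh11. That of Cspg4, with 2.4 units at day 5, lay between 1.65 and 2.64 with other pseudocounts. The other tested Cspg4 probe set differed less, with 29.2 units at day 7 and 12.6 at day 5. The WT array of day 5 also stands in the Dscr1KO comparison and that of day 7 in the Dscr1 Tg comparison, so a high or low value there enters both. The WT array of day 7 also held 5568.5 summed units of lens markers, against 384.6 at day 5, and its part in these differences was not tested.

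**Figure D3:**
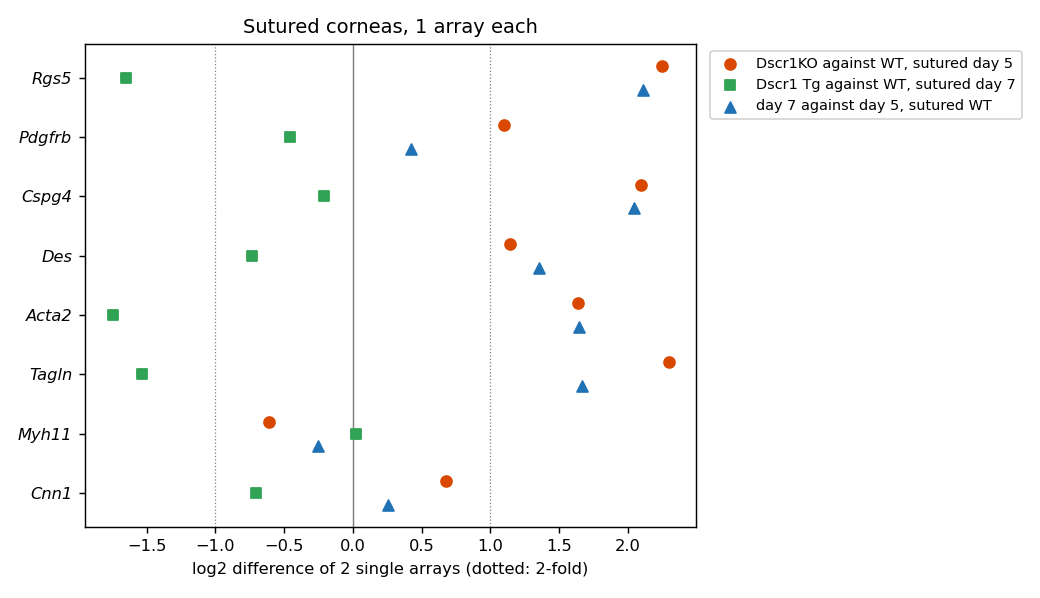
Log2 difference between pairs of single sutured arrays for the 8 genes, with dotted lines at 2-fold; Cnn1 is below the filter. Rgs5, Acta2 and Tagln are past 2-fold in all 3 pairs, above WT in Dscr1KO, below WT in Dscr1 Tg, and above day 5 at day 7.

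Other genes of mural cells were taken from lists. Of 13 other pericyte genes tested, 9 rose and 1 fell in intact corneas without Dscr1, where 16.3% of all genes tested rose and 15.4% fell. The median log2 change of the 13 was 1.81, against -0.018 for all genes tested. S1pr3, a receptor for sphingosine-1-phosphate, rose by 3.80 ± 0.26, Abcc9 and Kcnj8, the subunits of the vascular ATP-sensitive potassium channel, by 3.38 ± 0.30 and 2.76 ± 0.28, and Mcam, an adhesion molecule shared with endothelium, by 3.12 ± 0.36 (SE, adjusted p from 0.000102 to 0.000865). In intact WT and ApoeKO corneas these genes read at most 9.6 units. They passed the filter, a mean over all 12 arrays, through arrays where they were high. Such genes tilt the count and the median towards rises, and 13 of 17 genes on the platform passed. The same limit applies to the list counts that follow. The 1 that fell was Notch3, a receptor needed by arterial smooth muscle, at -0.82 ± 0.13 (SE, adjusted p = 0.00272), named after its value was seen. In WT, sutured against intact, 1 of these 13 rose and 0 fell, where 1.57% of all genes tested were called in either direction. It was S1pr3, with 41.5 and 68.5 units in sutured WT at day 5 and day 7, against 5.2 and 2.6 in intact WT (2.95 ± 0.37, SE, adjusted p = 0.0106).

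Of 19 contractile smooth muscle genes tested, 6 rose and 3 fell without Dscr1, with a median of 0.03, beside the 16.3% and 15.4% of all genes; the share that fell is near that of all genes. Itga7 and Itga8, integrin subunits of smooth muscle, rose by 1.51 ± 0.31 and 1.25 ± 0.24, the cytoskeletal gene Smtn (smoothelin) by 1.14 ± 0.19 and the tropomyosin gene Tpm1 by 1.12 ± 0.24 (SE, adjusted p from 0.0035 to 0.0106). The 3 that fell, named after their values were seen, were Ppp1r12a, a myosin phosphatase subunit, at -0.87, Mylk, the myosin light chain kinase, at -0.58, and Cnn3, a calponin found outside muscle as well, at -0.39. In sutured WT, 0 of the 19 were called by limma, where 1.57% of all genes tested were called. The 2 with the lowest p were Fhl1 at -1.75 ± 0.45 (SE, adjusted p = 0.0994) and Itga8 at 1.13 ± 0.32 (SE, adjusted p = 0.13).

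Of 18 recruitment signals and receptors of mural cells, 8 rose and 4 fell without Dscr1, with a median of 0.56, beside the 16.3% and 15.4% of all genes. Cxcl12, a chemokine, rose by 4.12 ± 0.29, Tek, the angiopoietin receptor of endothelium, by 2.53 ± 0.34, Pdgfc, a growth factor of the platelet-derived family, by 2.30 ± 0.24 and Tgfb2 by 1.87 ± 0.38 (SE, adjusted p from 0.00011 to 0.00831). Pdgfb, the ligand of the receptor encoded by Pdgfrb, had 0.84 ± 0.46 (SE, adjusted p = 0.197) and did not pass. The 4 that fell, named after their values were seen, were Cdh2 at -1.19, Tgfbr1 at -0.88, Pdgfa at -0.79 and Jag1 at -0.63. Cdh2 also stands on the list of corneal endothelial markers, so its fall is counted in both lists. In sutured WT 2 of the 18 rose and 0 fell, where 1.57% of all genes tested were called in either direction. They were Cxcl12, by 2.01 ± 0.39 (SE, adjusted p = 0.0401), and Tgfbr2, a receptor for transforming growth factor, by 1.31 ± 0.21 (SE, adjusted p = 0.0192).

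**Figure D4:**
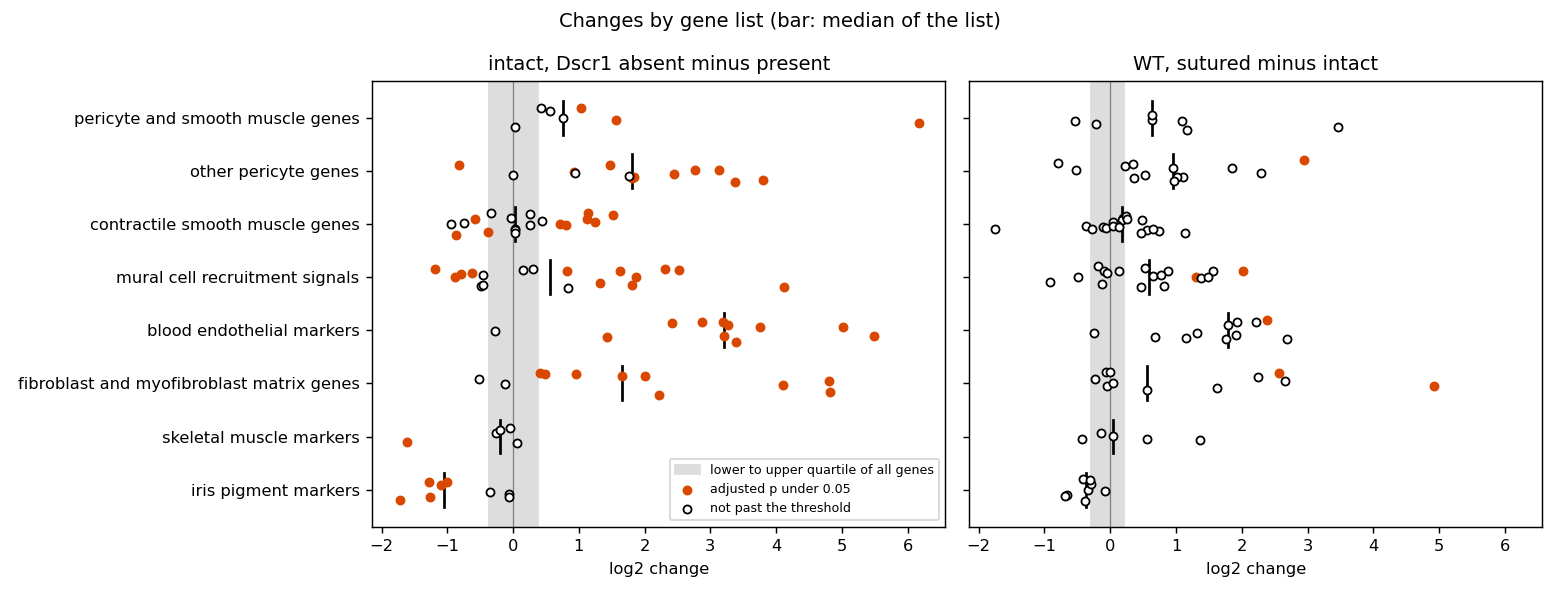
Fitted log2 change of each gene tested, by list, for intact corneas without against with Dscr1 (left) and for WT corneas sutured against intact (right). Orange points have an adjusted p under 0.05, bars are list medians (0.757 and 0.642 for the 8 genes' list), and the grey band runs from the lower to the upper quartile of all genes tested.

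Markers of other cell types moved with the same arrays, and their counts without Dscr1 stand beside 16.3% of all genes that rose and 15.4% that fell. Of 11 blood endothelial markers tested, 10 rose and 0 fell without Dscr1 (median 3.21), led by Vwf, Plvap and Ptprb, at 5.49, 5.01 and 3.75 on the log2 scale. Vwf read 6.0 and 2.1 units in WT and 0.4 and 1.7 in ApoeKO, so it passed the filter through arrays where it was high. Such genes tilt this count and median towards rises. The list's summed intensity was 1171.6 to 2129.0 units on the 4 intact arrays without Dscr1, against 187.1 to 235.7 on the 4 with it. On the sutured arrays the sum was 1117.6 in Dscr1KO and 376.8 in WT at day 5, and 359.0 in Dscr1 Tg and 787.1 in WT at day 7. In each of the 3 pairs of sutured arrays compared above, the array with more Rgs5 also had the higher sum, and the same held for macrophage, fibroblast matrix and iris pigment lists. The macrophage sum was 3405.5 in Dscr1KO and 1611.4 in WT at day 5, and 1575.2 in Dscr1 Tg and 2506.5 in WT at day 7. The matrix sum was 21729.4 in Dscr1KO and 12148.9 in WT at day 5, and 14441.5 in Dscr1 Tg and 22941.8 in WT at day 7. Of 7 macrophage markers 6 rose (summed 2792.4 to 5042.0 units without Dscr1, against 322.1 to 864.8 with it), and of 11 matrix genes of fibroblasts and myofibroblasts 9 rose, among them Col3a1 by 4.82 and Tnc by 4.80. The part of these cell types in the levels of Acta2, Tagln, Rgs5 and Pdgfrb was not tested.

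In intact corneas without Dscr1, several markers of iris, a tissue near the cornea, were lower, and so was 1 marker of skeletal muscle. There 16.3% of all genes tested rose and 15.4% fell. Of 5 skeletal muscle markers tested 0 rose and 1 fell, Tnni2 by a log2 change of -1.61. The summed level of that list was 131.2 to 176.7 units without Dscr1, against 246.0 to 289.7 with it. Tnni2 itself read 40.4 to 61.0 units without Dscr1 and 133.2 to 159.4 with it. Most of the difference in the sum was therefore that of this gene. Of 8 iris pigment markers 0 rose and 5 fell, among them Tyrp1 at -1.73. At day 7 after suturing the iris sum was 471.1 units in Dscr1 Tg and 1027.7 in WT. In sutured against intact Dscr1KO 1 of the 8 iris markers rose, and in the suturing by Dscr1 interaction 2 did. Of all genes tested, 0.37% and 1.03% were called there in either direction. Among the lists for the cornea's own cells, again in intact corneas without Dscr1, 0 of 6 keratocyte markers rose and 2 fell. There, 1 of 8 epithelial markers rose and 3 fell, and 0 of 7 corneal endothelial markers rose and 6 fell. Of 5 Schwann cell markers 3 rose and 0 fell. Of 8 lens markers 0 rose and 6 fell, with sums of 7471.0 and 5435.9 units in intact WT and at most 627.6 on the other 6 intact arrays. Photoreceptor markers summed to 5628.2 units in double KO replicate 1 and at most 428.8 elsewhere, with 0 of 4 called, and no adipocyte marker passed the filter. The part of these tissues in the results was not tested. No list was made for the limbus or the conjunctiva. Epithelial markers summed to at least 24951.0 and keratocyte markers to at least 16178.7 units on every array, as the label of whole cornea has it.

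Across the 12 arrays, Rgs5 and Pdgfrb had a Pearson r of 0.93 over 12 arrays on the log2 scale, Tagln had 0.72 with each of them, and Acta2 had 0.67 with Pdgfrb and 0.63 with Tagln. Des had 0.63 with Cspg4 and 0.54 with Tagln, and Cspg4 had 0.53 with Pdgfrb. Myh11 had between -0.34 and 0.17 with the other members tested. The arrays share genotype and suturing, so these values are descriptions. Outside the list, the genes most like Rgs5 were Hacd1 (0.984), Krt4 (0.979) and Col15a1 (0.976), and those most like Pdgfrb were Aoc3 (0.973), Eng (0.956) and Cmtm3 (0.953). Those most like Tagln were B3glct (0.949), Cables1 (0.927) and Fermt2 (0.92), and those most like Acta2 were Lgals1 (0.842), Ikbip (0.835) and Adcy7 (0.832). For Des they were Rsad2 (0.848), Trim47 (0.831) and Rap2a (0.825), for Cspg4 Zfp251 (0.896), Txnrd2 (0.872) and Isl2 (0.87), and for Myh11 Aarsd1 (0.897), Psat1 (0.871) and Setd6 (0.865).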

How the data were processed

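RNA of whole corneas was hybridised to 12 Affymetrix arrays of 45101 probe sets. Per the labels' protocols, RNA was purified with RNeasy, and biotinylated cRNA was prepared from 100 ng. The deposited values are linear intensity units on a scale that the authors made alike across arrays: each array's trimmed mean (2% off either end) is 100, and array medians are 15.6 to 21.1. No source used here names the software. The number of arrays limits the precision.

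Of the probe sets, 34958 carry 1 symbol in the platform annotation, 932 several and 9211 none. Values were taken as log2(intensity + 3.6), the pseudocount being the 20th percentile of all values, so a fold change of a dim gene is understated. Of the brightest probe sets, 12706 had a mean log2 at or above the 40th percentile and were tested with limma 3.58.1 (R 4.3.3). That mean took in all 12 arrays, so a gene dim in some groups could pass through others. The model had a coefficient for every group, variances were moderated along intensity, and p-values were adjusted by Benjamini-Hochberg with a threshold of 0.05. Intact comparisons used the 8 intact arrays. Suturing used 11 arrays, with both WT days pooled and without the Dscr1 Tg array. The code was tested on simulated data.

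Samples kept the groups of the labels. P-values measure the spread between these samples. The members and gene lists were chosen with earlier results of these data known. The rule for named genes takes all members, up to 4 genes per mural list and up to 3 per marker list with the largest called changes (the 2 with the lowest p where none was called), and the 3 genes most like each member. Pdgfb and the few genes that fell were added to it. Promoter stretches are RefSeq's (GRCm38.p6). Alternatives were other filters (60th percentile and none), quantile normalization, pseudocounts of 1.2 and 6.4, no trend, a replicate block, an Xist term, only the groups compared, all probe sets, each array left out and both doubtful libraries left out. For suturing, a fit with suturing and genotype as additive terms was another alternative. Figures were drawn with matplotlib 3.10.9.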

Additional observations from a re-analysis of the deposited data

How the results depend on the processing

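The brightest Rgs5 probe set passed the test in the average of Dscr1 loss under every alternative run, with a log2 change between 5.57 and 6.64. It also passed in the 3 pairwise comparisons with Dscr1 lost under every alternative run. A dimmer Rgs5 probe set, tested by itself, did not pass in Dscr1KO against WT (adjusted p = 0.0848, limma). Each array left out in turn moved the number of members called between 1 and 3 for Dscr1KO against WT, between 1 and 3 for double KO against WT and for double KO against ApoeKO, and between 0 and 1 for sutured WT and for the suturing by Dscr1 interaction. Leaving out both doubtful libraries left 1 member called in Dscr1KO against WT, and the cause was not tested. In sutured WT, 1 member (Rgs5) was called with a pseudocount at the 10th percentile (adjusted p = 0.0499, limma), with only the groups compared (adjusted p = 0.0477) and without both doubtful libraries (adjusted p = 0.0433). Signs turned in estimates that were not called: Myh11 in the average had -0.16 with quantile normalization, -0.007 without both doubtful libraries and between -0.17 and 0.22 with each array left out. Each array left out gave Rgs5 between -0.33 and 1.54 in double KO against Dscr1KO, Cspg4 between -1.55 and 0.49 and Des between -0.044 and 1.31 in sutured WT, and Rgs5 between -1.61 and 0.26 in sutured Dscr1KO. That last value was 0.26 without both doubtful libraries too.

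The replicate numbers did not pair the samples (correlations of deviations from -0.0461 to 0.0737 in 6 pairs of groups). With the replicate block the members called stayed at 3 in the average, with adjusted p of 0.00018 for Rgs5, 0.00273 for Pdgfrb and 0.0245 for Tagln, and at 2, 3 and 3 in Dscr1KO against WT, double KO against WT and double KO against ApoeKO.

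Counts over all genes moved more; where every probe set was tested by itself, they are counts of probe sets. Over the alternatives, 2168 to 6773 were called in the average (4023 as reported), 265 to 3863 in Dscr1KO against WT (1495), 700 to 4160 in double KO against WT (2555) and 520 to 3936 in double KO against ApoeKO (2493). They were 0 to 203 in ApoeKO against WT (3), 0 to 104 in double KO against Dscr1KO (3), 0 to 36 in the Dscr1 by Apoe interaction (1), 0 to 595 in sutured WT (199), 27 to 1890 in sutured Dscr1KO (47) and 25 to 1931 in the suturing by Dscr1 interaction (131). With every probe set, the probe sets past 2-fold between single arrays numbered 1471 for Dscr1KO against WT (774 genes), 996 for Dscr1 Tg against WT (541 genes) and 1545 for day 7 against day 5 (673 genes). Des, Myh11 and Cspg4 have no value under the stricter filter. Dim members near the pseudocount (Cnn1, Cspg4, Des, Myh11) are limited by their low signal.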
